A study of Mus musculus with 28 samples.

Results

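The enzymes that add methyl groups to histones and those that remove them were examined at their own promoters in mouse embryonic stem cells (mESCs). Members were chosen by gene symbol: protein-coding genes starting with Kdm, Kmt, Setd, Suv39h, Ehmt, Nsd with a number, or Prmt. This gave 51 of 21887 protein-coding genes. A deposited region whose centre lay within 1 kb of the transcription start site (TSS) was taken as a promoter region, and 43 of the 51 genes had one, 61 regions in all. Of all protein-coding genes, 13575 had a promoter region.

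All samples were FOXD3-iKO mESCs, an inducible knockout of the forkhead factor FOXD3, grown in L2i medium, and the labels give a treatment time of 24 h. For H3K27ac, an acetylated lysine of histone H3 that marks active promoters and enhancers, asynchronous 4HT (tamoxifen, which induces the depletion) and EtOH (solvent) cells had 2 samples each. For H2BK120ac, an acetylated lysine of histone H2B, the groups TT, TD, ET and ED had 3 samples each. The meaning of the 4 codes is not in the labels, and which letter, if any, stands for FOXD3 depletion is not known here. Of the 28 samples, 12 from phase-sorted cells were not used here. Values are CUT&Tag coverage scaled to library depth (CPM), and the authors merged the replicates into 1 column per group. No spread between replicates could be computed and no test was run.

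Histone methylation is written by SET-domain enzymes on lysines and by PRMT enzymes on arginines. It is removed by the flavin-dependent KDM1 enzymes and by the JmjC oxygenases of the other KDM families. The marks differ in place: H3K4 methylation lies at promoters and enhancers, H3K36 methylation along transcribed genes, and H3K9 and H4K20 methylation in silent or compacted chromatin. Embryonic stem cells keep much of their developmental programme under the control of such marks.

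The commonest value of a column, read as 1 fragment, was 0.415 in TT, 0.412 in TD, 0.445 in ET and 0.445 in ED, and 0.207 in 4HT and 0.165 in EtOH. Read so, the H2BK120ac columns held 2.41 M, 2.43 M, 2.25 M and 2.25 M fragments in that order. The 4HT column held 4.82 M and the EtOH column 6.08 M. That reading is uncertain, since the lowest H2BK120ac values are 0.25 of it. The 949 bp region of Kdm4b stood at exactly this value in ET and ED, so it is a height of coverage and not a count. Fragment numbers below are in this unit, and many promoter values stand near 1 or 2 of it. The promoters of the stem cell markers carried the H3K27ac mark, with a mean of 2.98 in 4HT and 2.12 in EtOH over 9 of 10 genes with a region, whereas fibroblast feeder markers had 0 in 4HT and 0.107 in EtOH over 4 of 7. In H2BK120ac the stem cell markers averaged 1.97 in TT, 1.91 in TD, 0.859 in ET and 0.724 in ED. Markers of other cell types came near this in ED, with 0.786 for trophectoderm, 0.611 for primitive endoderm and 0.520 for mesendoderm. Neuroectoderm (0.179) and feeder markers (0.056) were lower in ED. These sets hold few genes with a region, with 2 for trophectoderm and 2 for primitive endoderm. At the targeted gene Foxd3, the 2 regions inside the gene had no H3K27ac coverage in 4HT. They had 0.224 and 0.165 in EtOH, each less than the value of 2 fragments. In H2BK120ac these regions had 0.103 and 0.807 in TD and no coverage in TT, ET and ED, which is too little to check the labels. A better covered region just upstream of the gene, at chromosome 4, 99655987 to 99656129, had 2.81 in 4HT and 1.02 in EtOH, the opposite order.

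The promoter sequences of 5 members are shown because these genes carried large differences described below. Kmt2e and Kdm3b, whose differences were larger or better covered than some of these, are not shown. Each window runs from 250 bases before to 50 after a RefSeq start on GRCm38.p6, 5′ to 3′ on the gene's strand. Capitals mark matches to the motifs searched on both strands: GCATGCGC (NRF1 core), CCGGAAGT (ETS), TGACGTCA (CRE), CACGTG (E-box), CCAAT (NFY) and GGGCGG (SP).
Kmt5b (chr19:3767171-3767470, + strand): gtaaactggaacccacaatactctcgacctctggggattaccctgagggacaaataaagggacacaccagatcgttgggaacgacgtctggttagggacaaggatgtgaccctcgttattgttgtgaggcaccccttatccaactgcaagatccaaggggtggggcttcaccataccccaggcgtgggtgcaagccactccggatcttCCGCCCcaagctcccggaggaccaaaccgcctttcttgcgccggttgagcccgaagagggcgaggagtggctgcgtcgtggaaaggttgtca
Kdm5c (chrX:152232977-152233276, + strand): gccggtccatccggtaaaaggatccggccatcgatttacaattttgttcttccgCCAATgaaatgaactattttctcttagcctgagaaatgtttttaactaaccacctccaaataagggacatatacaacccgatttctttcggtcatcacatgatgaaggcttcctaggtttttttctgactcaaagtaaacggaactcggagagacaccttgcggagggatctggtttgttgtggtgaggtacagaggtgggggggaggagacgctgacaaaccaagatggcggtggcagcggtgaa
Kdm5b (chr1:134559928-134560227, + strand): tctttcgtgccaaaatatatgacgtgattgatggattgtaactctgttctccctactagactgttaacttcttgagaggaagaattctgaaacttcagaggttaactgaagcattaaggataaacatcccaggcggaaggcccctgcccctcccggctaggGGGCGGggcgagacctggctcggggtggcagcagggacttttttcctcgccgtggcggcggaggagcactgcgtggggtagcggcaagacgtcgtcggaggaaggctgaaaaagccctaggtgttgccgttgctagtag
Prmt7 (chr8:106210804-106211103, + strand): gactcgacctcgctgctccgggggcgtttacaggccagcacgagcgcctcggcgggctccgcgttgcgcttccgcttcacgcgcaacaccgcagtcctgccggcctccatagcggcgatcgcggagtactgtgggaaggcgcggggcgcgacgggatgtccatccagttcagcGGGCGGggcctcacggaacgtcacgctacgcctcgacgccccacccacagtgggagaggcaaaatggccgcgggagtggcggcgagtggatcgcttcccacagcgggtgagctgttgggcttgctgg
Kdm1a (chr4:136602674-136602973, - strand): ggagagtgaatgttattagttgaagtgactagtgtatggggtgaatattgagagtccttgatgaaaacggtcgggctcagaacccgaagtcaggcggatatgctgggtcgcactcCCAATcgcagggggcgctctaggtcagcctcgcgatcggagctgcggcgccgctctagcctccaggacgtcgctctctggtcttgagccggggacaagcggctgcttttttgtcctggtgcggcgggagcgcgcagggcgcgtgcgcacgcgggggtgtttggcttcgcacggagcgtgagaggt

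Kmt5b, Kdm5b and Prmt7 each held 1 SP match, starting 42, 89 and 77 bases before the RefSeq start of the window, and Kdm5c and Kdm1a each held 1 CCAAT, starting 196 and 135 bases before that start. The RefSeq start differs from the TSS used for the regions by 59 bases at Kmt5b, 29 at Kdm5c and 64 at Kdm1a. The windows of Prmt7 and Kdm1a lay wholly inside a deposited region, 159 bases of the Kdm5c window and 109 of the Kdm5b window did, and the Kmt5b region lay downstream of its window. RefSeq gave a promoter for 40 members. At Kdm6a, Kmt2d and Setd5 the nearest start lay 1713, 2872 and 27673 bp from the TSS used here. For the other 37 the start was within 1 kb. Their median GC content was 60.7% and their median CpG count 24 per window, against 56.3% and 14 over 15752 promoters of all genes, and 61.3% and 21 over the 10252 of these with a region. SP matches were in 24 of the 37 (64.9%), against 46.7% of all promoters and 66.2% of those with a region. CCAAT was in 17 (45.9%), against 39.4% and 39.3%. The CRE was in Prmt9 and Suv39h2 (5.41%, against 2.38% and 3.34%), the E-box in Ehmt2, Prmt1 and Prmt3 (8.11%, against 8.01% and 10.3%), the ETS motif in Setd4 (2.70%, against 5.37% and 7.91%) and the NRF1 core in 0 members (against 3.73% and 5.41%). In base content and SP matches the enzyme promoters thus lay nearer to promoters with a region than to all promoters.

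The enzyme promoters carried more of both marks than the average promoter. Mean H3K27ac over the 43 members was 1.08 in 4HT and 0.844 in EtOH, against 0.728 in 4HT and 0.599 in EtOH over all promoters. Mean H2BK120ac was 0.892 in TT, 0.961 in TD, 0.474 in ET and 0.479 in ED, against 0.720, 0.738, 0.452 and 0.446 over all promoters in the same order. The excess was thus in TT and TD and in both H3K27ac columns, and it was small in ET and ED. The members' regions were also wider in sum, with a median of 1022 bp against 857 bp, and the part of width in these levels was not tested.

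**Figure D1:**
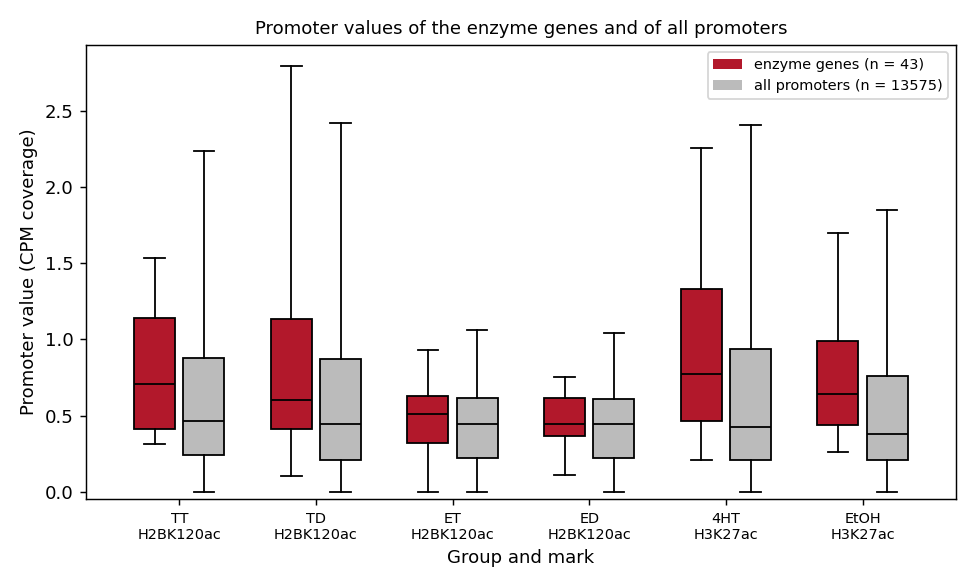
Box plots of the promoter values (CPM coverage) of the 43 enzyme genes with a region (red, left of each pair) and of all 13575 promoters with a region (grey, right), for H2BK120ac in TT, TD, ET and ED and H3K27ac in 4HT and EtOH; lines are medians, boxes quartiles and whiskers the 5th and 95th percentiles. The members' medians exceed those of all promoters in TT (0.709 against 0.468) and in 4HT (0.773 against 0.427), and are equal at 0.445 in ED.

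The H3K4 writers were grouped by gene symbol, which does not show that each protein writes the mark. Among them, Kmt2e had the strongest promoter of all 43 members in both marks. It encodes a SET-domain protein with a PHD finger that binds methylated H3K4. Its H3K27ac value was 4.88 in 4HT and 3.74 in EtOH. Its H2BK120ac value was 5.29 in TT, 3.76 in TD, 1.02 in ET and 1.05 in ED, with TT and TD above ET and ED and no overlap. The value is a mean over regions at chromosome 5, 23432656 to 23433586 and 23433780 to 23434129 (mm10), and both had this order of TT and TD over ET and ED. Setd1a, the catalytic subunit of a COMPASS complex, had 1.43 in 4HT and 0.986 in EtOH, and Kmt2c, which methylates H3K4 at enhancers, had 1.14 in 4HT and 0.639 in EtOH. Kmt2a and Kmt2b, the MLL family founders, had 0.574 and 0.903 in 4HT against 0.418 and 0.953 in EtOH. Setd7, a monomethylase that also acts on proteins other than histones, was lowest in the family, with 0.177 in 4HT and 0.199 in EtOH.

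Mean H3K27ac in 4HT was 0.806 over the H3K9 writers and 0.737 over the H3K36 writers. The H3K4 writers averaged 1.52 with Kmt2e and 0.843 without it, so that gene carries most of the gap. In EtOH the mean was 0.573 over the H3K9 writers and 0.653 over the H3K36 writers, beside 0.639 over the H3K4 writers without Kmt2e. Among the H3K9 writers the highest was Setdb2, with 1.41 in 4HT and 1.15 in EtOH, and the lowest by the mean of both groups was Suv39h1, an enzyme of constitutive heterochromatin, with 0.447 in 4HT and 0.483 in EtOH. Setdb1, which silences retroviral elements in stem cells, had 0.725 in 4HT and 0.302 in EtOH, and Ehmt1 (GLP, the partner of G9a) had 0.700 in 4HT and 0.350 in EtOH. Suv39h2 had 0.749 in 4HT and 0.577 in EtOH. The H4K20 writers were Kmt5a, which places the first methyl group, and Kmt5b and Kmt5c, which add further ones. Kmt5b had 2.26 in 4HT and 0.462 in EtOH, while Kmt5c had 0.636 in 4HT and 0.853 in EtOH and Kmt5a 0.724 in 4HT and 1.06 in EtOH. Kmt5b was the only one of the family higher in 4HT than in EtOH, as values with no test. Among the H3K36 writers, Nsd3 had 1.04 in 4HT and 0.825 in EtOH, Setd2, the trimethylase that travels with RNA polymerase II, had 0.966 in 4HT and 0.872 in EtOH, and Nsd2 had 0.207 in 4HT, the value of 1 fragment, and 0.262 in EtOH.

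The other SET-domain genes and the arginine methyltransferases spanned a wide range. Setd5, a chromatin regulator needed for normal brain development, had the second highest H3K27ac promoter by the mean of both groups, with 3.70 in 4HT and 2.60 in EtOH, and Setd4 the lowest of its family, with 0.178 in 4HT and 0.151 in EtOH. The nearest RefSeq promoter start of Setd5 lay 27673 bp from the TSS used, so its value belongs to the end of the gene span. Setd6 had 1.69 in 4HT and 1.07 in EtOH, and Setd3, an actin histidine methyltransferase, 0.765 in 4HT and 0.754 in EtOH. Of the arginine methyltransferases, Prmt3, which modifies a ribosomal protein, was highest with 1.67 in 4HT and 1.22 in EtOH, and the brain-expressed Prmt8 was lowest with 0.244 in 4HT and 0.287 in EtOH. Prmt1, the main enzyme of asymmetric dimethylation, had 1.47 in 4HT and 1.10 in EtOH, and Prmt7 1.36 in 4HT and 1.15 in EtOH. Prmt6 had 1.04 in 4HT and 0.991 in EtOH, and Prmt5, the main enzyme of symmetric dimethylation, 0.681 in 4HT and 0.466 in EtOH. Prmt9 had 0.773 in 4HT and 0.516 in EtOH, and Prmt2 0.279 in 4HT and 0.518 in EtOH.

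Among the demethylases, KDM3 and KDM5 had the strongest promoters. Kdm3b, an H3K9 demethylase, had 3.52 in 4HT and 2.72 in EtOH, and its relative Kdm3a 1.30 in 4HT and 0.755 in EtOH. The KDM5 enzymes remove H3K4 methylation: Kdm5c had 2.01 in 4HT and 0.862 in EtOH, Kdm5b 1.16 in 4HT and 1.70 in EtOH, and Kdm5a 1.29 in 4HT and 0.630 in EtOH. Kdm5b was thus the member of that family with the lower value in 4HT. Kdm1a (LSD1) had 0.864 in 4HT and 0.905 in EtOH, and Kdm1b 0.488 in 4HT and 0.452 in EtOH. Of the KDM4 genes, Kdm4a was highest with 1.11 in 4HT and 0.951 in EtOH and Kdm4d lowest with 0.319 in 4HT and 0.267 in EtOH, with Kdm4b between them. The H3K36 demethylase genes Kdm2a and Kdm2b had 0.372 and 0.207 in 4HT against 0.614 and 0.380 in EtOH. Kdm7a and Kdm8 were near the floor, with 0.216 and 0.266 in 4HT against 0.228 and 0.306 in EtOH.

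**Figure D2:**
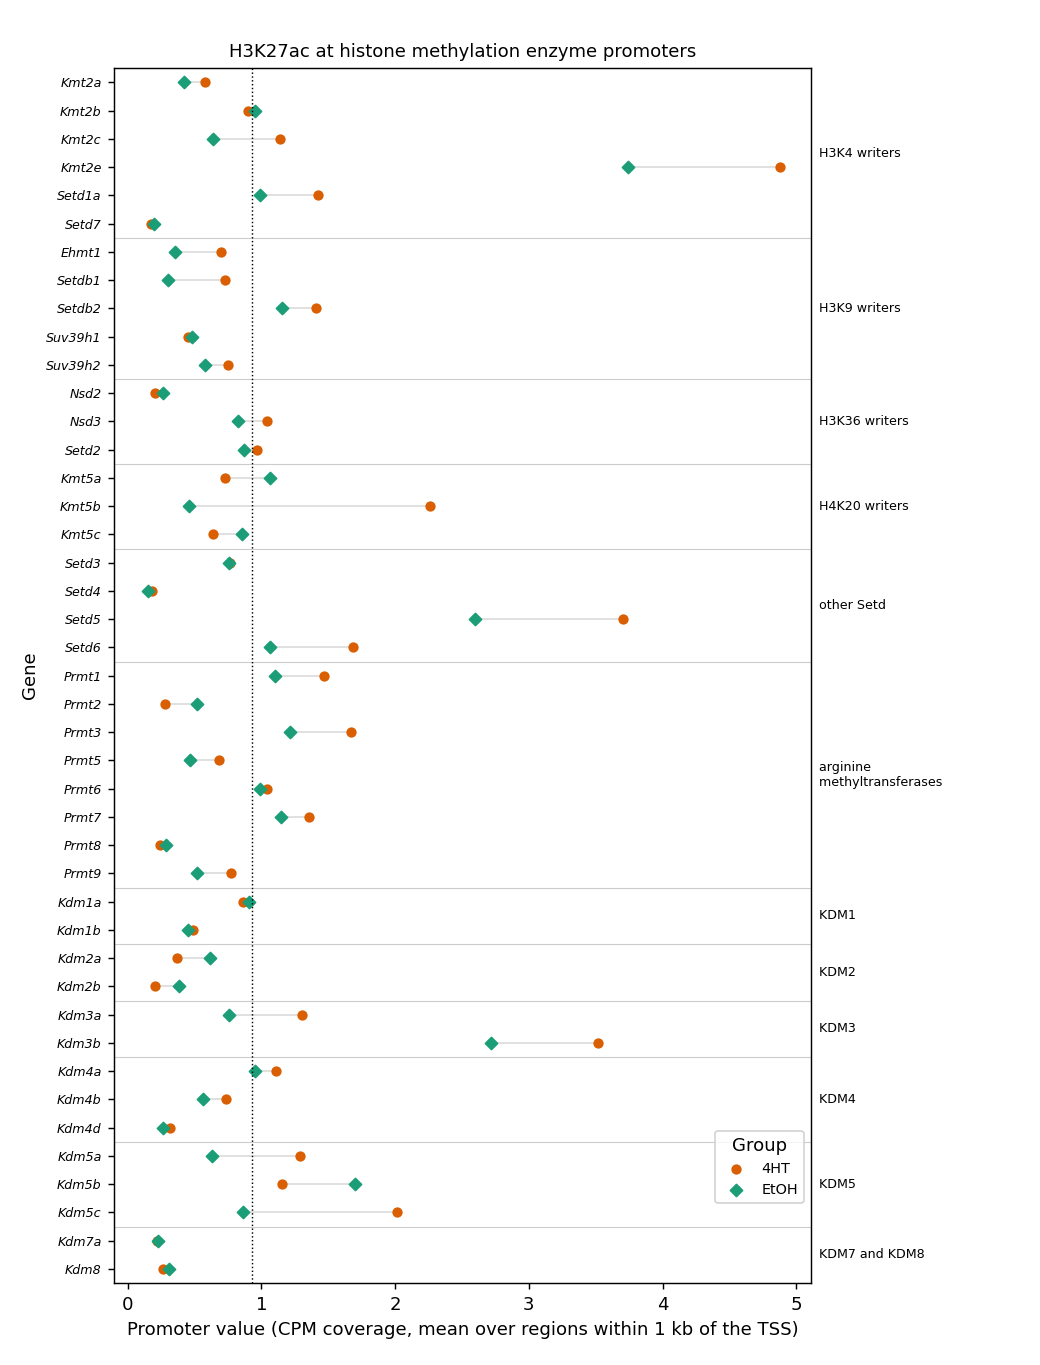
H3K27ac promoter value (CPM coverage) of each of the 43 enzyme genes with a region, by family, in 4HT (orange circles) and EtOH (green diamonds); 1 merged column per group, so no error bars, and the dotted line is the mean of 5 fragments (0.930) that a promoter's 2-group mean had to reach for a size call. Kmt2e, Setd5 and Kdm3b stand to the right in both groups, and Kmt5b has the widest relative gap.

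Of the 8 members without a promoter region, 5 were Ehmt2 (G9a), Kdm4c, Kdm5d, Kdm6a and Kdm6b. The rest were Kmt2d, Nsd1 and Setd1b. This does not mean that they lacked the mark. The strongest Nsd1 region lay 1030 bp from the TSS, just outside the window, with 6.65 in 4HT and 5.80 in EtOH, more than any promoter value of the 43 members. Its H2BK120ac was 2.12 in TT, 2.85 in TD, 1.98 in ET and 1.77 in ED. Kdm6a, an H3K27 demethylase, had a region 1465 bp from its TSS with 4.57 in 4HT and 3.72 in EtOH. Kmt2d had a region 2215 bp from its TSS with 1.02 in 4HT and 0.650 in EtOH. The nearest RefSeq promoter start lay 1713 bp from the TSS used at Kdm6a and 2872 bp at Kmt2d. The window may thus have missed promoter regions of these genes. With every start of the RefSeq promoters used, 45 members had a region. For Kdm6b the reference gives no strand, so its TSS may have been placed at the wrong end of the gene, 274 bp from the TSS of Tmem88. The region 20471 bp from that point, near the other end, had 1.88 in 4HT and 1.20 in EtOH. Of the 51 members, 8 shared the window with another gene's TSS, and 6 of these had a region: Kdm1b (with Tpmt), Kdm4d (Cwc15), Kdm5a (Ccdc77), Prmt7 (Slc7a6os), Setd3 (Ccnk) and Setdb2 (Cab39l and Gm45935). Their values cannot be assigned to one gene of the pair.

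H3K27ac in 4HT against EtOH asks what FOXD3 depletion did to active chromatin. At the enzyme promoters values were a little higher in 4HT on average, with 1.29 times the EtOH mean (95% counting interval 1.07 to 1.56), against 1.21 times over all promoters. After quantile normalization, which gives both columns 1 distribution, the ratio was 1.05. Of the 43 members, 29 were higher and 14 lower in 4HT (67.4% higher, against 61.6% of all promoters). The median log2 fold, on log2(value + 0.2), was 0.21, against 0.14 over all promoters. The difference of the enzyme genes thus lay near that of promoters in general.

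Of 17 members whose mean reached 5 fragments (0.930), 2 were at least 2-fold higher in 4HT, Kmt5b and Kdm5c, beside 3.59% of 2978 promoters. None was at least 2-fold lower, beside 0.168% of promoters. Both Kmt5b and Kdm5c passed that filter through 4HT, since their EtOH values were under 0.930. The filter thus favours such a call and gives it no support. Kmt5b had 2.26 in 4HT and 0.462 in EtOH in a single region at chromosome 19, 3767576 to 3767857, a ratio of 4.89 with a counting interval of 1.22 to 25.8 and a log2 fold of 1.89. Kdm5c had 2.01 in 4HT and 0.862 in EtOH, a ratio of 2.34 (0.785 to 9.40) and a log2 fold of 1.06, just over the limit. Its 3 regions were all higher in 4HT, and the one at chromosome X, 152233551 to 152233763, differed most, with 2.45 in 4HT and 0.486 in EtOH. The Kdm5c interval includes 1, and the Kdm5c call was lost with double the pseudocount (log2 fold 0.94) and after quantile normalization (0.80), where Kmt5b kept 1.63 and 1.69.

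The other 15 well covered members stayed under 2-fold, and all of their counting intervals include 1. Log2 folds were 0.84 for Kdm5a, 0.65 for Kdm3a, 0.57 for Setd6, 0.48 for Setd5, 0.46 for Setd1a and 0.40 for Prmt3. They were 0.37 for Kmt2e, 0.36 for Prmt1, 0.35 for Kdm3b, 0.27 for Nsd3, 0.25 for Setdb2, 0.21 for Prmt7, 0.18 for Kdm4a and 0.06 for Prmt6. Kdm5b alone of the 17 was lower in 4HT, with a log2 fold of -0.48 (ratio 0.681, 0.226 to 2.30). The median of the 17 was 0.37, against 0.33 over the 2978 promoters. After quantile normalization the median of the 17 was 0.047, with log2 folds of -0.04 for Kmt2e and -0.02 for Kdm3b. The median of all 13575 promoters, with no filter, was then 0, which is not a like background for the 17.

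H2BK120ac differed between the groups whose code starts with T and those whose code starts with E at many promoters, the enzyme genes among them. The mean over the 43 members was 2.004 times as high in TD as in ED (counting interval 1.40 to 2.92), against 1.66 times over all promoters. It was 1.88 times as high in TT as in ET (1.29 to 2.71), against 1.59 times over all promoters. Without Kmt2e, the strongest member, these ratios were 1.92 and 1.71. The median log2 fold on log2(value + 0.4) was 0.29 for TD over ED, against 0.08 over all promoters, and 0.54 for TT over ET, against 0.12.

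Both TT and TD exceeded both ET and ED at 20 of 43 members (46.5%), beside 31.5% of all promoters, and both were below at Kdm2b and Kmt5b (4.65%), beside 16.0%. Members are more strongly marked than the average promoter, and among promoters with a mean H3K27ac of at least 5 fragments the shares were 13 of 17 members (76.5%) beside 60.9% for above, and 1 of 17 (5.88%) beside 7.56% for below. These shares are descriptions. The 20 genes were Kdm1a, Kdm3b, Kdm5a, Kdm5b, Kdm5c, Kmt2a, Kmt2e, Kmt5a, Prmt1, Prmt3, Prmt6, Prmt7, Setd1a, Setd2, Setd4, Setd5, Setd6, Setd7, Setdb2 and Suv39h1, so writers and erasers of several marks were among them. All 3 measured KDM5 genes were in this group, and none of the measured KDM2, KDM4, KDM7 and KDM8 genes was. KDM1 and KDM3 were split, with Kdm1a and Kdm3b in it and Kdm1b and Kdm3a outside. All 3 KDM5 promoters reached a mean H3K27ac of 5 fragments, but among KDM2, KDM4, KDM7 and KDM8 only Kdm4a did. Some orders of TT and TD against ET and ED rest on values near 1 fragment or under it. At Suv39h1, Setd4 and Setd7, which are among the 20, no H2BK120ac value exceeded 0.451. Kdm2b, where both were below, had 0.415 in TT, 0 in TD, 0.517 in ET and 0.445 in ED.

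Kmt2e was the only member whose H2BK120ac mean reached 5 fragments (2.15). It was at least 2-fold higher in TD than in ED, beside 89.0% of 283 promoters, with a ratio of 3.58 (0.862 to 39.6). It was also higher in TT than in ET, beside 86.6%, with a ratio of 5.17 (1.37 to 55.2). The shares of promoters at least 2-fold lower were 0% and 0.707%. Kmt2e reached that mean through TT and TD, and the mean also chose the 283 promoters, so such a filter favours promoters high in those columns.

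At a mean of 3 fragments (1.29) there were 5 members, and all 5 were at least 2-fold higher in TD than in ED, beside 74.8% of 979 promoters, and 0.715% lower. All 5 passed that filter through TT and TD, since every ET and ED value of theirs was under 1.29, so these counts are no support for a difference. Kdm5b had 1.74 in TT, 2.93 in TD, 0.569 in ET and 0.111 in ED, where 0.111 is 0.25 of 1 fragment, and its log2 fold in TD against ED was 2.71, the largest of the 43. Kdm3b had 1.54 in TT, 2.80 in TD, 0.523 in ET and 0.455 in ED (log2 fold 1.90 in TD against ED). Prmt7, an enzyme of arginine monomethylation, had 1.48 in TT, 3.19 in TD, 0.752 in ET and 0.889 in ED (log2 fold 1.48). In all of these TT and TD lay above ET and ED without overlap. Kdm5c had 1.62 in TT, 2.05 in TD, 0.966 in ET and 0.735 in ED (log2 fold 1.11). In its first region, at chromosome X, 152232668 to 152233014, TT had no coverage while TD had 1.82, ET 1.21 and ED 1.11, so the order of the whole promoter does not hold there.

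In TT against ET, 3 of these 5 passed 2-fold, Kmt2e, Kdm5b and Kdm3b, beside 68.7% of promoters, and 1.63% were lower. The log2 fold was 2.0 for Kmt2e, 1.14 for Kdm5b and 1.07 for Kdm3b, and 0.71 for Prmt7 and 0.56 for Kdm5c. Of the 10 counting intervals of these 5 genes in the 2 comparisons, those of Kdm5b in TD against ED and of Kmt2e in TT against ET lie above 1. TT against ET and TD against ED share no column.

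A filter that uses no H2BK120ac column, a mean H3K27ac of at least 5 fragments, was added after seeing the data. Of the 17 members it kept, 9 were at least 2-fold higher in TD than in ED (52.9%), beside 34.8% of 2978 promoters: Kdm3a, Kdm3b, Kdm5b, Kdm5c, Kmt2e, Prmt1, Prmt6, Prmt7 and Setd6. Only Kmt5b was at least 2-fold lower (5.88%), beside 1.68%. In TT against ET, 4 were higher (23.5%), beside 31.6%, namely Kdm3b, Kdm5b, Kmt2e and Setd5, and 0 were lower, beside 2.25%. The median log2 fold of the 17 was 1.11 for TD over ED, against 0.64 over the 2978 promoters, and 0.71 for TT over ET, against 0.58. For TT over ET the members' share was thus lower and their median higher than over all promoters kept. With 17 members, these shares and medians are descriptions. Kdm3a had 0.343 in TT, 0.969 in TD, 0.979 in ET and 0.111 in ED, where 0.111 is 0.25 of 1 fragment. Its ET value was thus as high as its TD value.

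Below 3 fragments, Kdm1a, the histone demethylase LSD1, had 1.16 in TT, 2.73 in TD, 0.626 in ET and 0.349 in ED. Setd6 had 1.51 in TT, 1.65 in TD, 0.628 in ET and 0.445 in ED. Prmt6 had 1.06 in TT, 1.93 in TD, 0.667 in ET and 0.254 in ED, and Prmt1 had 1.15 in TT, 1.54 in TD, 0.420 in ET and 0.412 in ED. Setd5 had 1.28 in TT, 1.47 in TD, 0.355 in ET and 0.860 in ED. Kmt5b, which passed 2-fold in H3K27ac, had 0.104 in TT, 0 in TD, 0.445 in ET and 0.445 in ED. None of these exceeded the value of 1 fragment.

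**Figure D3:**
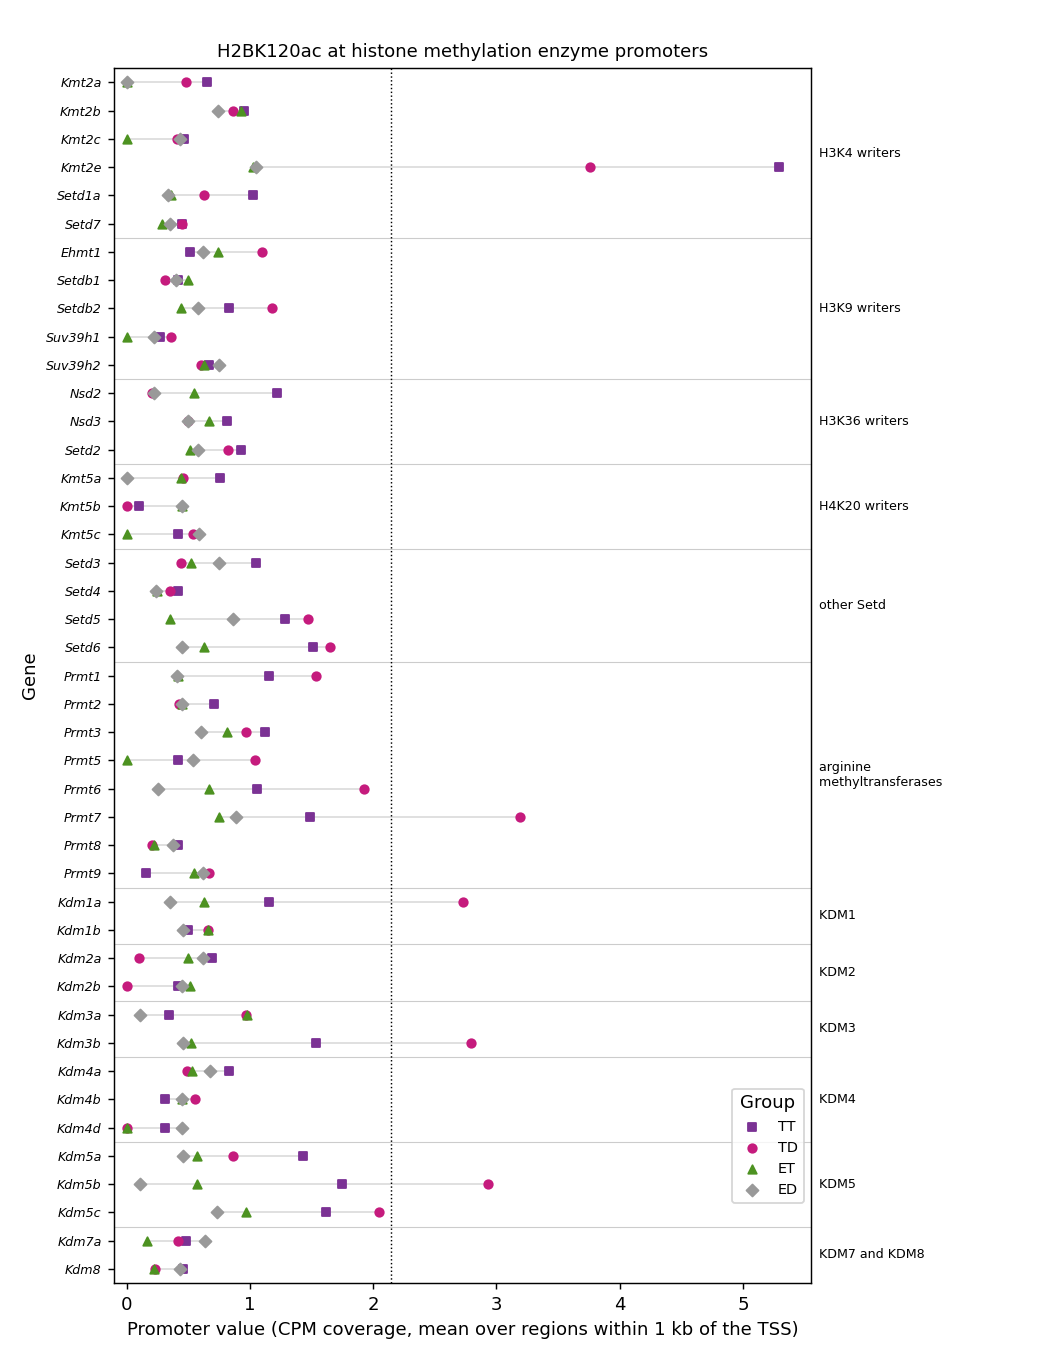
H2BK120ac promoter value (CPM coverage) of each of the 43 enzyme genes with a region, by family, in TT (purple squares), TD (pink circles), ET (green triangles) and ED (grey diamonds); 1 merged column per group, so no error bars, and the dotted line is the mean of 5 fragments (2.15) that a promoter's 4-group mean had to reach. Kmt2e stands apart in TT and TD, and Prmt7, Kdm5b, Kdm3b and Kdm1a have their highest value in TD.

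**Figure D4:**
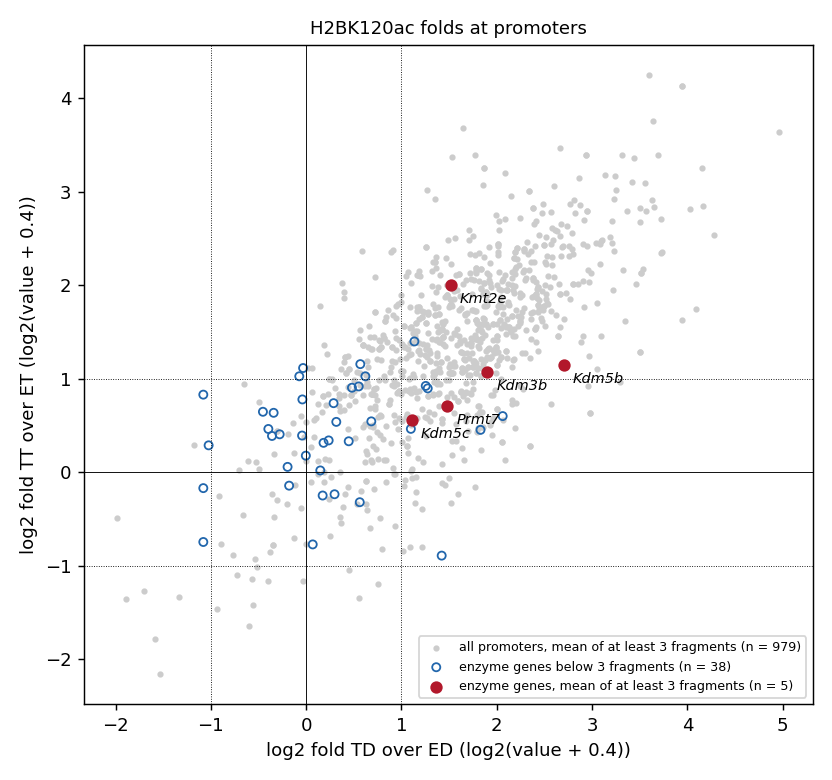
Log2 fold of H2BK120ac in TD over ED (x axis) and in TT over ET (y axis), on log2(value + 0.4), for 979 promoters with a mean of at least 3 fragments (grey), the 5 enzyme genes among them (red, named) and the 38 enzyme genes below it (open blue circles); dotted lines mark 2-fold. The 5 named genes lie inside the cloud of promoters, 3 of them past 2-fold on both axes.

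The remaining comparisons showed little at the enzyme promoters. The mean in ET was 0.990 times that in ED (0.650 to 1.54), a ratio near that of all promoters. The mean in TT was 0.928 times that in TD (0.691 to 1.24), against 0.975, while the median log2 fold of TT against TD was 0.10, so the ratio of means and the median differ in sign. At 5 fragments Kmt2e passed 2-fold in neither, beside 4.95% of promoters higher and 1.77% lower in ET against ED, and 0% higher and 1.77% lower in TT against TD. At 3 fragments 0 of 5 members passed, beside 4.19% higher and 2.04% lower in ET against ED, and 1.12% higher and 2.96% lower in TT against TD. Prmt7 came nearest, with a log2 fold of -0.93 in TT against TD (ratio 0.465, 0.111 to 1.88). With the filter on mean H3K27ac, 1 of 17 members was at least 2-fold higher in ET than in ED (5.88%), beside 4.70% of 2978 promoters. This was Kdm3a, with a log2 fold of 1.43 and an ED value under 1 fragment. None was lower, beside 4.00%.

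Further genes of the pathway, outside the symbol rule, were taken from 2 lists. The list of partner subunits, such as Wdr5 and Rbbp5 of the H3K4 complexes and Eed and Suz12 of Polycomb repressive complex 2, had a region at 21 of 22 genes and higher levels than the enzymes, with mean H3K27ac of 2.04 in 4HT and 1.46 in EtOH. Its mean H2BK120ac was 1.42 in TD against 0.501 in ED, and 1.25 in TT against 0.622 in ET. The other enzymes, such as Ezh2, Dot1l and Carm1, had a region at 22 of 23 genes, with mean H3K27ac of 0.972 in 4HT and 0.825 in EtOH. In H3K27ac, Rbbp5 was the only gene of 13 well covered partners at least 2-fold higher in 4HT, and none of 9 well covered other enzymes was. Beside these stand 3.59% of 2978 promoters, so such small counts say little about either list.

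Away from the promoter, 143 further regions lay in the bodies of 41 members. Of these, TT and TD both exceeded ET and ED at 25 (17.5%), beside 12.2% of 55217 regions in the bodies of all protein-coding genes, and both were below at 23 (16.1%), beside 22.4%. The H2BK120ac mean reached 5 fragments at 3 of them, in Setd7, Setd3 and Nsd1, which are named because of these values. The share of gene body regions of all genes that reach this mean is not given here. The Setd7 region, 204 bp wide and 35249 bp into the gene at chromosome 3, 51525473 to 51525676, had 12.8 in TT and 10.99 in TD, against 0 in ET and 0.445 in ED. H3K27ac there was 0.207 in 4HT and 0.165 in EtOH, the value of 1 fragment each. It ranked 175 of all 127646 regions in mean H2BK120ac, while the Setd7 promoter had 0.451 in TT, 0.451 in TD, 0.284 in ET and 0.350 in ED. The Setd3 region at chromosome 12, 108152869 to 108153017, had 4.05 in TT and 6.47 in TD, against 0.350 in ET and 0 in ED. Its H3K27ac was 0.279 in 4HT and 0.273 in EtOH. The Setd7 and Setd3 regions reached the mean of 5 fragments through TT and TD, so their height in those columns follows from the choice. Their H3K27ac was near the level of 1 fragment. At Kmt2e, regions 1412 bp and 2316 bp into the gene, beyond the promoter window, carried both marks. The one at 2316 bp had 2.76 in TT, 3.15 in TD, 0.557 in ET and 0.903 in ED, with H3K27ac of 2.65 in 4HT and 2.44 in EtOH.

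**Figure D5:**
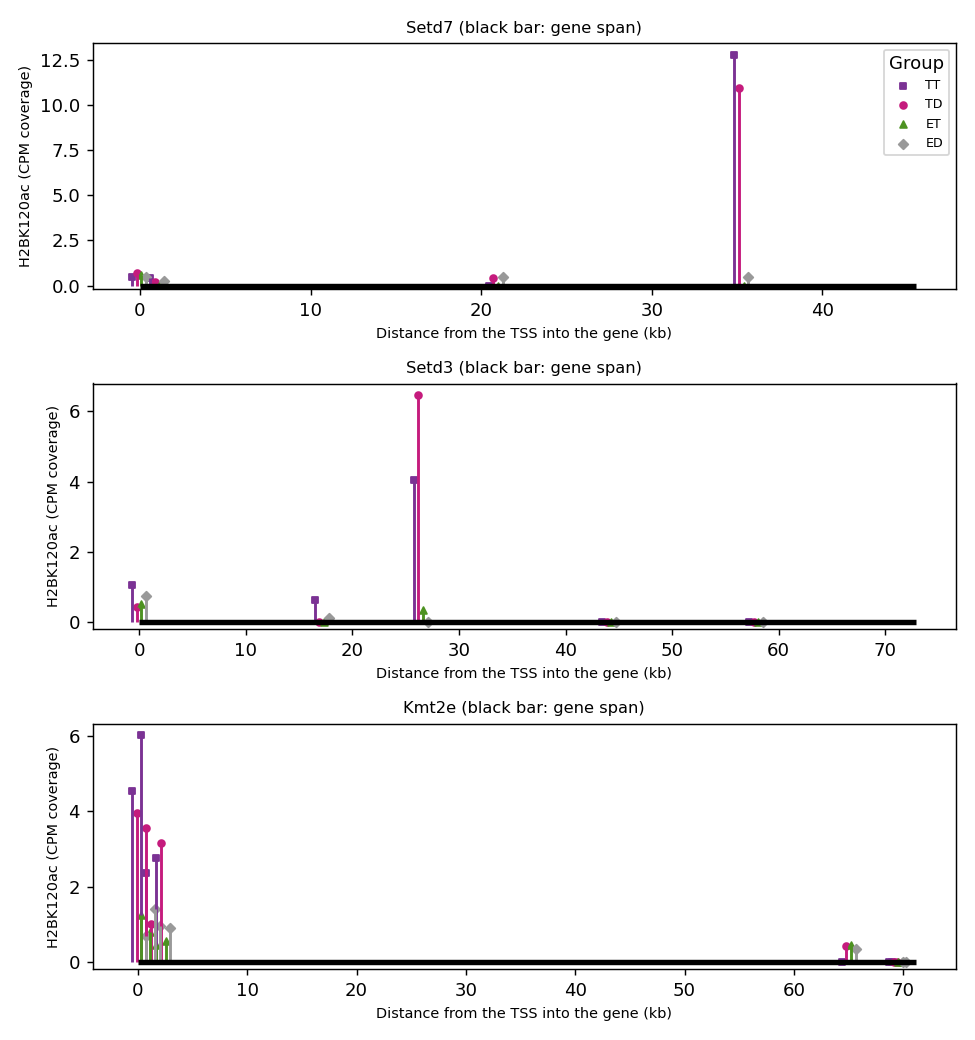
H2BK120ac (CPM coverage) of every deposited region within 1 kb of the TSS or in the body of Setd7, Setd3 and Kmt2e, against distance from the TSS into the gene in kb; bars are TT (purple), TD (pink), ET (green) and ED (grey), set side by side around each region's centre. Setd7 and Setd3 each have a single intragenic region high in TT and TD, 35249 bp and 26402.5 bp from the TSS, while the high regions of Kmt2e lie within 2316 bp of its TSS.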

How the data were processed

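CUT&Tag coverage of H3K27ac and H2BK120ac in mESCs was taken from the tables that the authors deposited, one per mark, in 127646 regions. The values are coverage signal, CPM per the names of the deposited tables, with the replicates already merged into 1 column per group. The build is mm10, per the submitters' processing notes; no source used here gives the aligner or the rule that set the regions. A missing value was counted as 0. A further 16 columns named IgG match no sample and were not used.

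The TSS was the end of the gene span (RefSeq, GRCm38.p6) by strand where the promoter table gives one (40 members), and otherwise the end nearest to a deposited TSS window within 5000 bp (11 members). A promoter value is the mean over the regions within 1 kb. Folds were taken on log2(value + pseudocount), 0.4 for H2BK120ac and 0.2 for H3K27ac, which understates changes of low promoters. A call needed 2-fold and a mean of at least 5 fragments; H2BK120ac was also counted at 3 fragments, since its lowest values are 0.25 of the commonest, and, as an alternative added after seeing the data, with the 5 fragments required of H3K27ac instead. Ratios have exact Clopper-Pearson 95% counting intervals, which cover counting error only and take a pile-up as the number of fragments.

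The planned limma fits could not be run on merged columns. Code was tested on simulated data. The text names, per comparison, the 10 well covered members of largest fold in each direction (all, where fewer), the 10 highest in each mark, the highest and lowest of each family and every member without a region. Members and lists were chosen with earlier results of these data known, and the printed windows, the gene body regions and other values quoted were chosen after they were seen. Python 3.11.15, pandas 2.3.3, numpy 2.4.6, scipy 1.17.1 and matplotlib 3.10.9 were used.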

Additional observations from a re-analysis of the deposited data

How the results depend on the processing

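No paired analysis was possible because each group has 1 merged column, so no replicate could be left out and no replicate block fitted. Of the results that answer a comparison, 247 alternative values stayed close to the main one or within its counting interval and 21 moved. In the H2BK120ac comparisons the main counts and median log2 folds rest on Kmt2e alone, whose counting intervals are wide. For these, staying close to the main value does not show stability. The intervals of single genes are likewise too wide for their 354 alternative log2 folds to show stability. For H3K27ac the number of members at least 2-fold higher in 4HT was 1 in place of 2 with double the pseudocount, median centring, quantile normalization or weighting by width, under which Kdm5c fell short. Quantile normalization also gave a median log2 fold of 0.047 over the 17 well covered members, in place of 0.37, and a ratio of means of 1.05. It moved the median of all promoters, with no filter, from 0.14 to 0 in H3K27ac, and gave 0.19 for TD over ED and 0.28 for TT over ET. In TD against ED the number at least 2-fold higher was 5 at 3 fragments and 12 with no filter, with 4 lower under no filter. In TT against ET it was 3 at 3 fragments and 8 with no filter. Without Kmt2e (chosen after seeing the data) no member reached 5 fragments, so the count of 0 in both comparisons was fixed in advance. With the filter on mean H3K27ac, also added after seeing the data, 9 members were higher and 1 lower in TD against ED, 4 higher in TT against ET and 1 higher in ET against ED. With no filter, 2 members were higher and 4 lower in ET against ED, and 3 higher and 1 lower in TT against TD. There the value of 1 fragment against 0 passes 2-fold. Over all promoters, no filter gave 20.5% higher and 9.63% lower for TD over ED, 20.1% and 8.88% for TT over ET, 9.55% and 9.89% in ET against ED, and 8.20% and 7.83% in TT against TD; the members' shares were 27.9%, 9.30%, 18.6%, 0%, 4.65%, 9.30%, 6.98% and 2.33% in that order. For the other shifts the cause was not tested. Depth limits the H2BK120ac results, as 38 of 43 members lie under a mean of 3 fragments.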
